A study of Homo sapiens with 12 samples.

Results

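Metallothioneins are small, cysteine-rich proteins that bind zinc, copper and toxic metals such as cadmium. This account covers 8 human metallothionein genes, MT1A, MT1E, MT1F, MT1G, MT1H, MT1M, MT1X and MT2A, and MTF1, the gene of the zinc-finger transcription factor that activates them. The 9 genes were taken by name from the 28395 gene identifiers of a count table, with earlier results of these data known. The 12 RNA-seq libraries came from BEAS-2B, an immortalised human bronchial epithelial cell line, in 4 groups of 3 that the study's design calls biological triplicates. Cells of every group were first kept for 24 h in serum- and steroid-free medium. The groups were TGF-β1 (40 pM, 24 h) followed by dexamethasone (30 nM, a further 4 h), dexamethasone alone, TGF-β1 alone, and untreated control. Dexamethasone is a synthetic glucocorticoid, which activates the glucocorticoid receptor, and TGF-β1 is a cytokine of wound repair under which epithelial cells lay down matrix and take on a mesenchymal shape. The cells are 1 line in plain culture, and 1 field of the labels, on growth, speaks of A549 lung adenocarcinoma cells where all others name BEAS-2B.

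Metallothioneins hold much of a cell's exchangeable zinc and release it when their thiols are oxidised. MTF1 senses free zinc, moves to the nucleus and binds short metal response elements in the promoters of the metallothioneins and of SLC30A1, the zinc exporter of the cell membrane. Human MT2A is also a long-known glucocorticoid-induced gene. The metallothionein genes lie in 1 cluster on chromosome 16 (RefSeq GRCh38.p14), from MT2A at chr16:56608584-56609497 to MT1X at chr16:56682470-56684196, with all members on the plus strand but MT1G. MTF1 lies elsewhere, on the minus strand at chr1:37809574-37859592.

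RefSeq promoter windows of GRCh38.p14, 250 bases before to 50 after the start, were at hand for MT2A (chr16:56608334-56608633), MT1X (chr16:56682220-56682519), MT1H (chr16:56669564-56669863) and MTF1 (chr1:37859543-37859842). The first 3 are printed because they span the cluster, from its most read member to one with almost no reads. Capitals mark the metal response element cores TGCACNC and TGCGCNC on either strand, none of which overlap.
MT2A: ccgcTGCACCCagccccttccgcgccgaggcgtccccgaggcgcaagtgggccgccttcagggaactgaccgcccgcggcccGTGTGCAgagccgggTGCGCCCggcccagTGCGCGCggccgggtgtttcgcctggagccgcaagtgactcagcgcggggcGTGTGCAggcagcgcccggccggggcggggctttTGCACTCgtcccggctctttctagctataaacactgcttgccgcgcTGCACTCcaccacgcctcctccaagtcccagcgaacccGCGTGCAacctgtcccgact
MT1X: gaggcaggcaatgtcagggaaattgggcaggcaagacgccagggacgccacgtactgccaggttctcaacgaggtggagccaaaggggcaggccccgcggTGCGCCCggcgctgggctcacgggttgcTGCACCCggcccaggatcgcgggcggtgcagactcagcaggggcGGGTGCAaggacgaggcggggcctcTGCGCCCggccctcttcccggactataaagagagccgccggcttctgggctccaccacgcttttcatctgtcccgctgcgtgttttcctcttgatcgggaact
MT1H: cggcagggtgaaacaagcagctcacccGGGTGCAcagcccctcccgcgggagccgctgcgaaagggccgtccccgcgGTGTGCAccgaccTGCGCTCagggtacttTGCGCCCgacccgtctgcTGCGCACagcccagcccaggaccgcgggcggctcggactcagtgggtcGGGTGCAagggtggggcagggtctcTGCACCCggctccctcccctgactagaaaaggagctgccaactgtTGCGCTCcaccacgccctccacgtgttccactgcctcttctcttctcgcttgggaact
The MT2A window held 8 cores, 6 of TGCACNC and 2 of TGCGCNC. The MT1X window held 4, with 2 of each, and the MT1H window 8, with 4 of each. The MTF1 window held 0. Of 35116 promoter windows of the same length, 0.601% held at least 4 cores and 0.0199% at least 8. Neither the full palindromic glucocorticoid response element nor its arm AGAACA was found in the 4 windows on either strand, which says only that these letters are not there. The full element stood in 0.00285% of all windows and the arm in 14.8%.

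Total counts lay between 5861591 and 7008203 in the libraries numbered 1 and 2 and between 17968961 and 19727235 in those numbered 3. Levels are CPM, counts scaled to a common library total after TMM normalization. Folds are log2 values with a standard error (SE), p-values come from edgeR's quasi-likelihood fit with Benjamini-Hochberg adjustment over 13469 tested genes, and the threshold was 0.05. The treatments showed in their usual genes: FKBP5, a glucocorticoid-induced chaperone, was higher by 3.90 (SE 0.12) with dexamethasone alone, and TGFBI, a matrix gene of TGF-β1, by 5.54 (SE 0.20) with TGF-β1 alone. Of the epithelial marker list 10 of 10 genes had a mean of at least 1 CPM. Of 10 genes abundant in A549 cells 3 reached it, with a sum of 16.5 to 62.7 CPM, of 5 leukocyte genes 1, with a sum of 1.28 to 6.98 CPM, and of 4 endothelial genes 2, with a sum of 1.29 to 5.10 CPM. Libraries with the same number deviated together, and results with the number as a block are given where they change a call.

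The 8 metallothioneins together were low in untreated cells and highest with both agents. Their summed level was 412 ± 17.3 CPM with both, 304 ± 121 CPM with dexamethasone, 117 ± 4.26 CPM with TGF-β1 and 66.0 ± 13.8 CPM in control (SD, n = 3 each). The mean was 6.25-fold that of control with both, 4.61-fold with dexamethasone and 1.77-fold with TGF-β1. Within library numbers these folds ran from 5.17 to 7.89, from 3.86 to 5.48 and from 1.48 to 2.08. In these bulk libraries a larger share of expressing cells and more RNA per cell cannot be told apart. The groups did not overlap except both and dexamethasone, where replicate 2 of dexamethasone reached 444 CPM against 226 and 243 CPM in the other two. The summed level of the 10 epithelial markers moved with the groups as well, at 4711 to 7663 CPM with both, 3313 to 4983 CPM with dexamethasone, 3243 to 5321 CPM with TGF-β1 and 2517 to 3372 CPM in control. Dexamethasone alone raised 1 of its 10 members, where 10.4% of tested genes were called, or 6 with the replicate block, where 22.2% were. TGF-β1 alone raised 3 and lowered 4, where 32.8% were called, or 4 in each direction with the block, where 50% were. The keratin KRT7 was higher with each agent, by 0.85 with dexamethasone alone (SE 0.24, edgeR adjusted p = 0.0479) and by 0.76 with TGF-β1 alone (SE 0.24, adjusted p = 0.0337). The list did not move in 1 direction. With TGF-β1 alone KRT14 was higher by 2.20 and KRT17 by 1.68, while KRT15 fell by 3.23, KRT19 by 1.63 and KRT18 by 1.27. KRT17 and KRT7 averaged 1955 and 1810 CPM with both, a large part of the summed level. The part of the epithelial markers in the metallothionein differences was not tested.

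MT2A, the most widely expressed human metallothionein, carried most of these reads, between 52.2% and 79.6% of the metallothionein reads of a library. Its level was 254, 292 and 261 CPM with both, 149.8, 302 and 118 CPM with dexamethasone, 92.7, 95.1 and 83.0 CPM with TGF-β1, and 45.6, 61.8 and 36.6 CPM in control, in the order of library numbers. All libraries of each treated group stood above all control libraries, and replicate 2 of dexamethasone stood apart from its group. MT1X, a member of the MT1 group that is expressed in many tissues, had 90.7, 68.6 and 122 CPM with both, 50.6, 56.1 and 76.9 CPM with dexamethasone, 23.7, 18.6 and 26.1 CPM with TGF-β1, and 12.6, 11.5 and 14.4 CPM in control. MT1X followed the same order of groups as MT2A, and in each gene the libraries with both agents overlapped those with dexamethasone alone and no other groups overlapped.

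MT1E showed a different order. It had 39.7, 49.6 and 34.5 CPM with both, 38.6, 80.2 and 26.9 CPM with dexamethasone, 2.28, 3.71 and 1.79 CPM with TGF-β1, and 4.09, 6.83 and 1.98 CPM in control. The libraries with dexamethasone stood far above those without it, and the TGF-β1 and control libraries overlapped.

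MT1F and MT1M were low. MT1F had 2.92, 3.31 and 3.41 CPM with both, 2.22, 1.93 and 1.72 CPM with dexamethasone, 0.876, 1.55 and 0.953 CPM with TGF-β1, and 0.758, 0.776 and 0.531 CPM in control. Neighbouring groups did not overlap, though from only 32 reads summed over the TGF-β1 libraries and 21 over the control libraries. MT1M had 3.89, 4.52 and 3.10 CPM with both, 1.92, 3.27 and 1.92 CPM with dexamethasone, 0, 0.309 and 0.0561 CPM with TGF-β1, and 0, 0.155 and 0.0966 CPM in control. MT1M was thus near 0 without dexamethasone, from 3 reads summed over the TGF-β1 libraries and 3 over the control libraries.

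MTF1 was steady by comparison. It had 48.3, 45.1 and 42.6 CPM with both, 44.2, 45.2 and 41.0 CPM with dexamethasone, 42.1, 47.0 and 43.8 CPM with TGF-β1, and 36.5, 39.1 and 36.7 CPM in control. The 3 treated groups overlapped one another and lay above control.

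**Figure D1:**
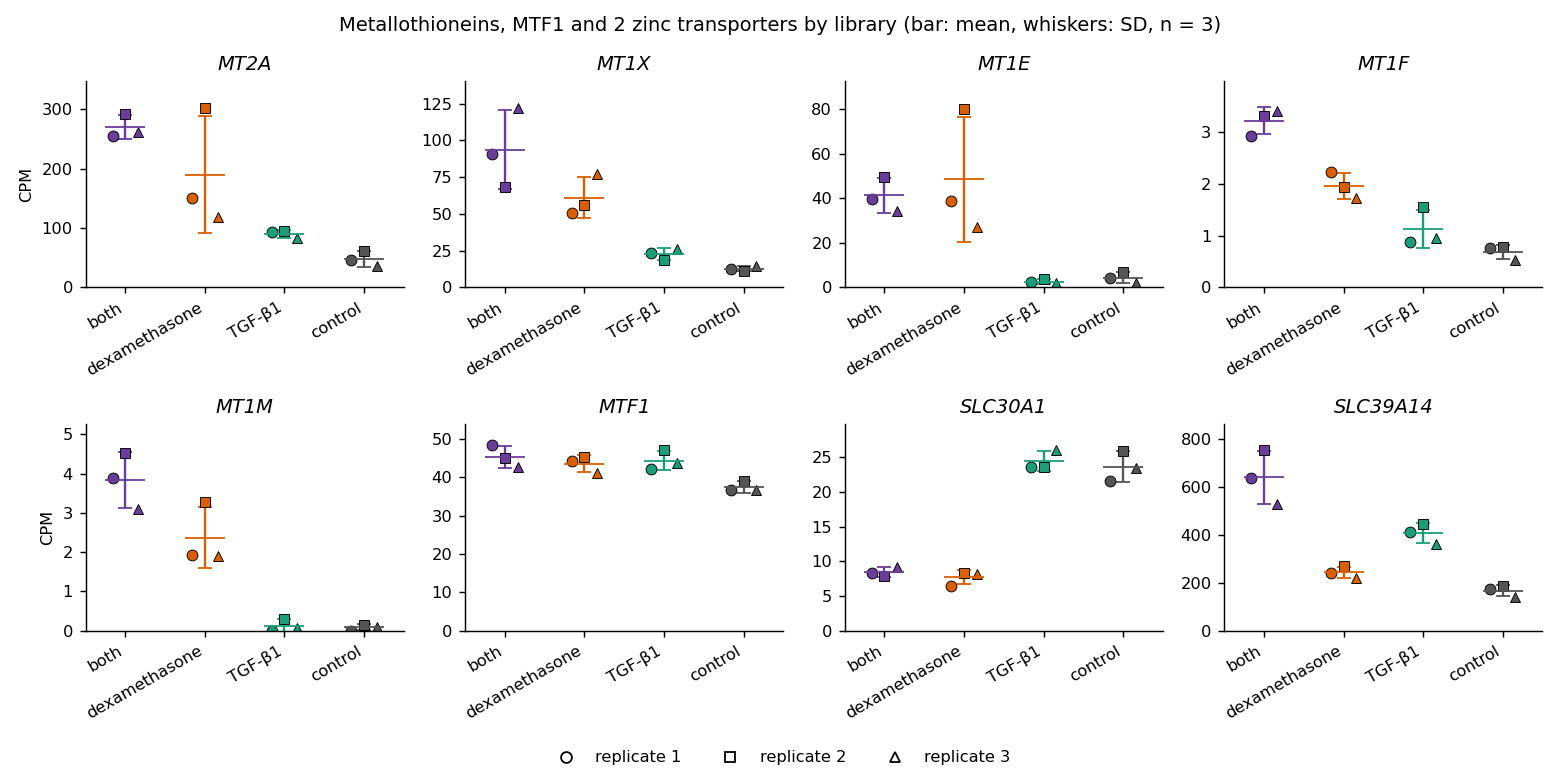
CPM per library (vertical axes, from 0) of 5 metallothioneins, MTF1 and the zinc transporters SLC30A1 and SLC39A14 in the 4 groups; symbols are replicate numbers, horizontal bars the mean and whiskers the SD of n = 3. MT1E and MT1M are low in the TGF-β1 and control groups and high in both groups with dexamethasone, the means of MT2A and MT1X descend in the order of groups shown, and SLC30A1 is low in both groups with dexamethasone.

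Per length of annotated exon, joined over all coding transcripts of a gene, the levels in control were 48.4 ± 12.9 CPM per kb for MT2A, 15.6 ± 1.82 for MT1X, 4.70 ± 0.18 for MTF1, 4.09 ± 2.31 for MT1E and 0.94 ± 0.19 for MT1F (SD, n = 3). With both agents they were 272 ± 20.3 CPM per kb for MT2A, 114 ± 32.7 for MT1X, 39.2 ± 7.30 for MT1E, 5.68 ± 0.36 for MTF1, 4.63 ± 0.86 for MT1M and 4.37 ± 0.35 for MT1F. On this scale MT1E did not stand apart from MTF1 in control and stood above it with both. The scale sets genes side by side only roughly. For MT2A the joined length was 991 bases, longer than its RefSeq gene, so levels per kb can be understated. Metallothionein genes share sequence, which limits how sharply reads can be assigned: of the 50-base words of their transcripts, 4.24% in MT2A, 8.28% in MT1X, 7.10% in MT1E, 3.27% in MT1F, 9.87% in MT1M, 16.5% in MT1G and 15.8% in MT1H also occur in another gene, and how reads matching several genes were counted is not given in the sources used here.

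Dexamethasone alone raised MT2A, MT1X and MT1E, while MTF1 did not pass the test. These 4 genes reached the level of the filter on low counts, 1.53 CPM on raw totals, in 3 of 3 libraries of every group. For all tested genes, 10.4% were called in either direction and 5.54% as higher. MT1F and MT1M reached that level in 0 of 3 libraries of TGF-β1 and 0 of 3 of control and passed the filter through both groups with dexamethasone, where they are high, so their calls with the filter are no support and their tests against those groups are given from a fit without it. MT1A, MT1G and MT1H did not pass the filter.

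MT1E was higher by 3.68 on the log2 scale (SE 0.52, edgeR adjusted p = 0.000774), by 9.43, 11.7 and 13.6-fold within library numbers. MT1X was higher by 2.24 (SE 0.23, adjusted p = 2.7e-05) and MT2A by 1.99 (SE 0.32, adjusted p = 0.00199). MT2A was 3.28, 4.89 and 3.22-fold above control within numbers, so the direction was shared by 3 of 3. With all 4 libraries numbered 1 left out, MT2A lost its call (2.11, adjusted p = 0.0530). In the fit without the filter, where 5.62% of genes were called, MT1F was higher by 1.56 (adjusted p = 0.0103) and MT1M passed at 2.65e-06. With the filter MT1F lost its call without replicate 3 of control (0.0714) and without all libraries numbered 1 (0.0913) or 3 (0.136). MT1M had 75 reads with dexamethasone against 3 in control, a depth-scaled ratio of 24.5 (95% interval 8.08 to 122, for counting error only). MTF1 was at 0.21 (SE 0.09, edgeR adjusted p = 0.165), and with the replicate number as a block its adjusted p was 0.0458, where 22.2% of all tested genes were called.

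On cells already given TGF-β1, dexamethasone again raised MT2A, MT1X and MT1E, with 8.11% of tested genes called and 5.09% called higher. MT1E was higher by 4.09 (SE 0.56, edgeR adjusted p = 0.000804), which was 17.4, 13.4 and 19.2-fold within numbers. MT1X was higher by 2.04 (SE 0.22, adjusted p = 5.78e-05) and MT2A by 1.58 (SE 0.31, adjusted p = 0.00941). MT2A lost its call without replicate 3 of TGF-β1 (adjusted p = 0.054) and without all libraries numbered 1 (0.154) or numbered 3 (0.0560). In the fit without the filter, where 4.27% of genes were called, MT1F was higher by 1.55 (adjusted p = 0.00455) and MT1M passed at 2.16e-07. With the filter MT1F lost its call without all libraries numbered 1 (0.0815) or 3 (0.138). MT1M had 101 reads with both against 3 with TGF-β1, a depth-scaled ratio of 35.6 (11.8 to 176). MTF1 was at 0.03 (SE 0.09, 95% interval -0.14 to 0.20, adjusted p = 0.942).

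The dexamethasone effect in TGF-β1-treated cells was set against that in cells without it by the interaction, the first effect minus the second. None of the 6 tested members passed, with edgeR, with DESeq2 or with the replicate block, and 0 had an unadjusted p under 0.05, where 0.884% of tested genes were called. The interaction was -0.42 for MT2A (95% interval -1.29 to 0.46), -0.20 for MT1X (-0.83 to 0.42) and -0.18 for MTF1 (-0.42 to 0.06). It was 0.42 for MT1E (-1.07 to 1.90) and 0.53 for MT1M (-1.07 to 2.14), and for MT1F the interval ran from -0.84 to 0.84. The intervals are wide, so equal effects are not shown.

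TGF-β1 alone raised MT2A, MT1X and MTF1, 3 of the 6 tested members, at a share of tested genes called of 32.8%, with 16.2% called higher. MT1X was higher by 0.82 (SE 0.24, edgeR adjusted p = 0.0198), by 1.88, 1.62 and 1.81-fold within numbers. MT2A was higher by 0.93 (SE 0.32, adjusted p = 0.0479), by 2.03, 1.54 and 2.27-fold within numbers. MTF1 was higher by 0.24 (SE 0.09, adjusted p = 0.0449), by 1.15, 1.20 and 1.19-fold within numbers. These 3 calls lie near the threshold in this fit without a block. With the replicate block all 3 stayed, at edgeR adjusted p values of 1.99e-05 for MT1X, 0.00823 for MTF1 and 0.0254 for MT2A. That fit called 50% of tested genes. Without the block and without the filter on low counts all 3 were lost (0.119 for MT2A, 0.0730 for MT1X and 0.101 for MTF1). MT2A was also lost with library size alone (0.105) and with DESeq2 size factors (0.0534). Leaving out 1 library at a time, MT2A lost its call without 9 of 12 libraries (adjusted p 0.0595 to 0.187) and kept it without replicate 2 of control, replicate 2 of dexamethasone or replicate 3 of dexamethasone. MTF1 lost its call without 10 of 12 (0.0524 to 0.157), all but replicates 1 and 3 of both, with DESeq2 (0.0816) and with library size alone as the scale (0.04, adjusted p = 0.769). MT1X lost its call without replicate 2 of control, replicate 1 of TGF-β1 or replicate 3 of TGF-β1 (0.0513 to 0.0949).

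MT1E did not follow. Its log2 difference with TGF-β1 was -0.64 (SE 0.69, 95% interval -1.99 to 0.72, edgeR adjusted p = 0.526), and within numbers its level was 0.556, 0.543 and 0.906 times that of control. In the fit without the filter, MT1F was at 0.77 and did not pass (edgeR adjusted p = 0.275). Its CPM ranges in the 2 groups did not overlap, but they rest on 5, 10 and 17 reads with TGF-β1 and 5, 5 and 11 in control. MT1M had 3 reads in each group, a depth-scaled ratio of 1.12 (0.151 to 8.40). Among 5 fibroblast genes, PDGFRB alone reached 1 CPM and none was at 0 in all libraries. Their summed level was 132 to 175 CPM with both, 29.5 to 40.1 CPM with dexamethasone, 180 to 201 CPM with TGF-β1 and 34.5 to 42.3 CPM in control, and its part in the metallothionein differences was not tested.

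When TGF-β1 came before dexamethasone, MT1X and MT1F were higher than with dexamethasone alone, 2 of the 6 tested members. That is near the share of all tested genes called in either direction, 32.3%, with 15.9% called higher. MT1X was higher by 0.61 (SE 0.21, edgeR adjusted p = 0.0376), and lost its call without any of 5 libraries, which were replicate 1 of TGF-β1, replicates 1 and 2 of dexamethasone and replicates 1 and 3 of both (0.0522 to 0.175). MT1F was higher by 0.76 (SE 0.26, adjusted p = 0.0366), and lost its call with DESeq2 (0.142) and without any of replicates 2 and 3 of dexamethasone and replicates 1, 2 and 3 of both (0.0618 to 0.178). Both calls were lost without the filter on low counts (0.124 for MT1X and 0.112 for MT1F) and with library size alone (0.114 and 0.107 in the same order). With the replicate block both stayed, at edgeR adjusted p values of 1.39e-05 for MT1X and 0.0155 for MT1F. MT1M was at 0.71 (SE 0.33, adjusted p = 0.124), with 101 reads against 75, and at an adjusted p of 0.0297 with the replicate block, where 49.9% of tested genes were called. MT2A was at 0.51 (SE 0.30, adjusted p = 0.233), and without replicate 2 of dexamethasone it was at 1.03 with an adjusted p of 0.00132. MT1E was at -0.22 (SE 0.41, 95% interval -1.02 to 0.58, adjusted p = 0.725), and at 0.36 without that same library.

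Set against untreated cells, both agents raised MT2A, MT1X, MT1E and MTF1, the 4 genes above the filter's level in every group, with 36.6% of tested genes called and 18.5% called higher. MT1E was higher by 3.46 (SE 0.52, edgeR adjusted p = 0.000437), MT1X by 2.86 (SE 0.23), MT2A by 2.50 (SE 0.32) and MTF1 by 0.27 (SE 0.09, adjusted p = 0.0242). In the fit without the filter, where 18.8% of genes were called, MT1F was higher by 2.31 (adjusted p = 1.69e-05) and MT1M passed at 2.41e-08. MT1M had 101 reads against 3, a depth-scaled ratio of 40.1 (13.3 to 198). The MTF1 call was lost with library size alone (0.01, adjusted p = 0.920), without the filter (0.0659) and without replicate 1 or 3 of control or replicate 1 or 2 of both (0.0502 to 0.0958).

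Dexamethasone alone against TGF-β1 alone gave MT1E, MT1X and MT2A higher and MTF1 not past the test, where 37.8% of tested genes were called and 19.5% as higher. MT1E stood out in size at 4.31 (SE 0.55, edgeR adjusted p = 0.000126), followed by MT1X at 1.42 (SE 0.22) and MT2A at 1.07 (SE 0.31, adjusted p = 0.0199). MT2A lost its call without the filter (0.0630) and without replicate 1 or 3 of TGF-β1 (0.0513 and 0.0742). In the fit without the filter, where 19.6% of genes were called, MT1F was at 0.79 and did not pass (adjusted p = 0.147), and MT1M passed at 1.94e-06. MTF1 was at -0.03 (SE 0.09, adjusted p = 0.811).

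**Figure D2:**
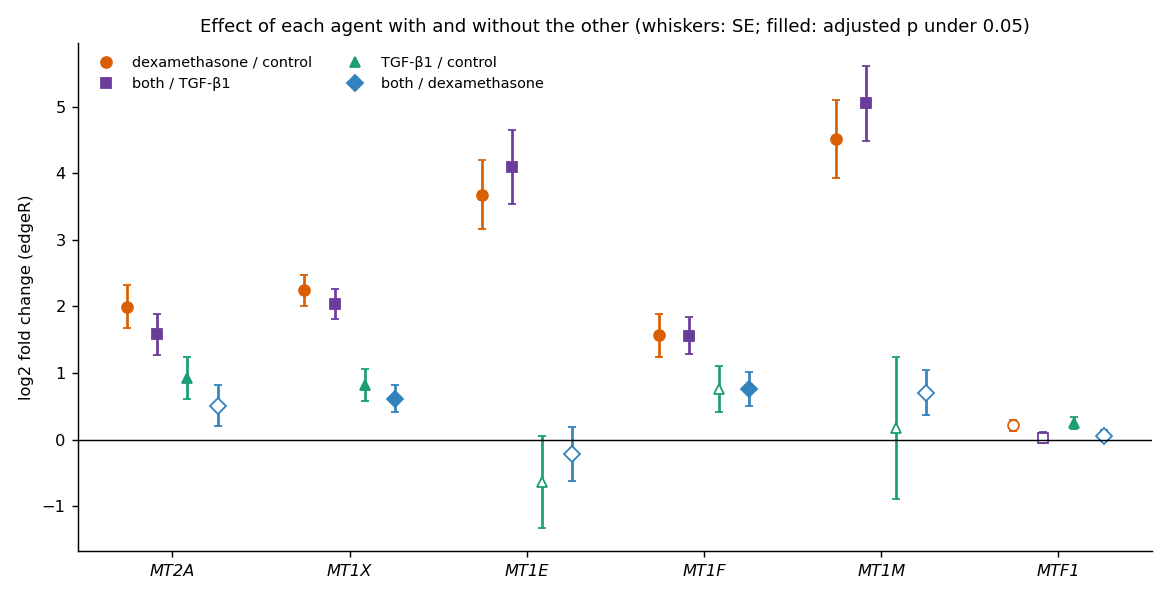
edgeR log2 fold changes (vertical axis) of the 6 tested genes for dexamethasone without and with TGF-β1 and for TGF-β1 without and with dexamethasone; whiskers are the SE and filled symbols have an adjusted p under 0.05. MT1E and MT1M have the largest dexamethasone values of the 6, MTF1 lies close to 0, and the TGF-β1 values of MT1E are below 0 but not past the test. MT1F and MT1M passed the filter on low counts through the groups with dexamethasone, so their filled dexamethasone symbols are no support.

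The balance between MT1E and MT2A can be read within each library, free of scaling. MT1E reads per 100 MT2A reads were 15.6, 17.0 and 13.2 with both, 25.8, 26.5 and 22.9 with dexamethasone, 2.46, 3.90 and 2.16 with TGF-β1, and 8.97, 11.1 and 5.41 in control. No 2 groups overlapped. TGF-β1 libraries had the lower ratio in 3 of 3 numbers, both on top of dexamethasone and without it, at a log2 difference of -0.72 for both against dexamethasone and -1.56 for TGF-β1 against control. Dexamethasone libraries had the higher ratio, at 2.47 for both against TGF-β1 and 1.62 for dexamethasone against control. Each of these 4 comparisons had a two-sided exact permutation p of 0.1, the smallest that 3 against 3 libraries can give, and 0.2 adjusted over the 12 ratio tests made. This ratio was chosen after its values were seen.

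The balance of MT1X to MT2A did not separate the groups. MT1X reads per 100 MT2A reads were 35.7, 23.5 and 46.8 with both, 33.8, 18.6 and 65.3 with dexamethasone, 25.5, 19.5 and 31.5 with TGF-β1, and 27.6, 18.6 and 39.4 in control. Replicate 3 was the highest and replicate 2 the lowest in each of the 4 groups, and all groups overlapped. Its exact permutation p values over the 6 comparisons of groups, in a test that takes no account of the numbers, lay between 0.3 and 1. Within numbers the ratio was higher in 3 of 3 for both against TGF-β1, by 0.27 to 0.57 on the log2 scale, and for both against control, by 0.25 to 0.37.

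**Figure D3:**
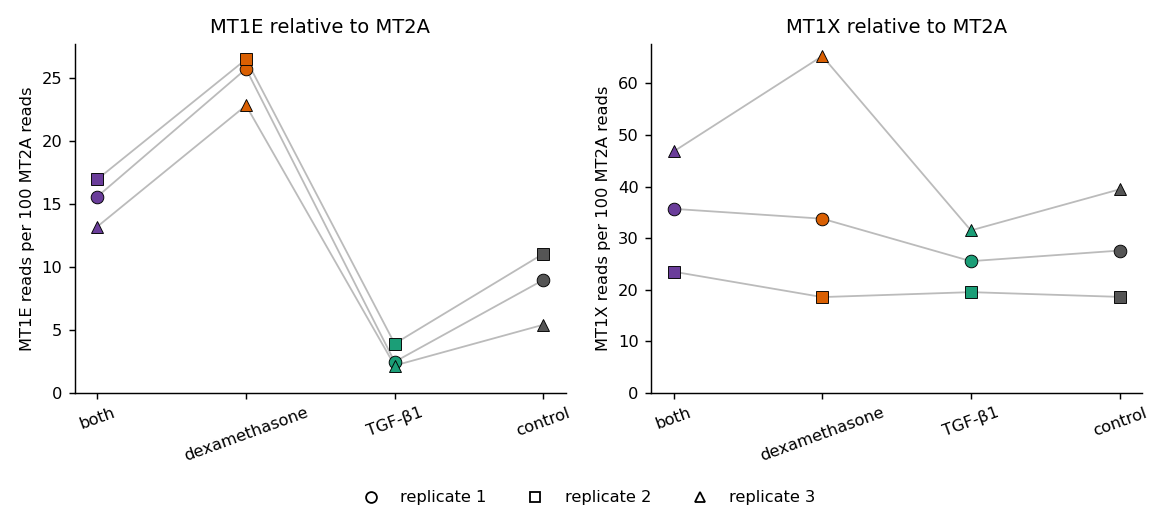
Reads of MT1E and of MT1X per 100 MT2A reads (vertical axes, from 0) in each library of the 4 groups, with lines joining libraries of the same number. MT1E separates the 4 groups, at 22.9 to 26.5 with dexamethasone alone and 2.16 to 3.90 with TGF-β1 alone, whereas for MT1X the groups overlap, with replicate 3 the highest and replicate 2 the lowest in each of them.

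The remaining members were close to silent. MT1A had 6, 5 and 9 reads with both, 3, 1 and 8 with dexamethasone, 1, 0 and 1 with TGF-β1, and 0, 0 and 2 in control. Over the group this was 20 reads with both against 2 with TGF-β1, a depth-scaled ratio of 10.6 (2.57 to 93.4), and 12 reads with dexamethasone against 2 in control, a ratio of 5.89 (1.31 to 54.2). Tested without the filter on low counts, MT1A was higher with both than with TGF-β1 (edgeR adjusted p = 0.0257), where 4.27% of genes were called. It was also higher with both than in control (0.00393), where 18.8% were. For dexamethasone alone MT1A did not pass the test (0.213), where 5.62% were called. MT1G, known for its response to zinc, had 14 reads with both, 4 with dexamethasone, 6 with TGF-β1 and 3 in control, and 12 of the 14 came from replicate 3. That library is deeper, but its scaled level was also higher, at 0.730 CPM against 0.162 and 0.174 CPM in replicates 1 and 2. MT1H, whose window holds as many metal response element cores as that of MT2A, had 2 reads with both, again from replicate 3, and 0 in the other 3 groups, which allows up to 0.0873 CPM with dexamethasone, 0.1000 CPM with TGF-β1 and 0.0889 CPM in control (3 reads over a group).

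Of the 12 other metallothionein names looked for, 8 were in the table and 1, the transcribed pseudogene MT1L between MT2A and MT1E, was tested. MT1L had 8.91, 5.57 and 8.46 CPM with both, 3.55, 4.16 and 3.16 CPM with dexamethasone, 3.85, 2.47 and 5.33 CPM with TGF-β1, and 2.88, 1.71 and 2.17 CPM in control. Unlike MT1E beside it, MT1L was higher with both than with dexamethasone, by 1.12 (SE 0.27, edgeR adjusted p = 0.00596), and with TGF-β1 than in control, by 0.87 (SE 0.30, adjusted p = 0.0398). That last call was lost without replicate 2 or 3 of control, replicate 1 or 3 of TGF-β1 or replicate 1 of dexamethasone (0.0507 to 0.316), with DESeq2 (0.0555) and with library size alone (0.0865). The call for both against dexamethasone was lost without all libraries numbered 1 (0.111) or 3 (0.111). For dexamethasone alone MT1L was at 0.66 (SE 0.31, adjusted p = 0.243), and for both against TGF-β1 at 0.91 (SE 0.27, adjusted p = 0.0521, or 0.00552 with the replicate block). A test of the difference in response between MT1L and MT1E was not made.

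The protein-coding neighbours within 300 kb of the cluster gave a local comparison. Of 9 such genes 7 were tested, and 0 passed for dexamethasone with edgeR's adjusted p, at a share of 10.4% over all tested genes, while with the replicate block 2 were higher and 1 lower, at a share of 22.2%. With 7 genes a count of 0 is near that share. For both against TGF-β1 0 passed, where 8.11% of tested genes were called, and 1 was higher with the block, where 17.5% were. With TGF-β1 alone HERPUD1, a gene of the degradation of proteins from the endoplasmic reticulum, was higher by 0.61 (SE 0.12, adjusted p = 0.00156) and OGFOD1, a hydroxylase of a ribosomal protein, by 0.28 (SE 0.10, adjusted p = 0.0376), the second lost with DESeq2 (0.0568), with library size alone (0.08, adjusted p = 0.570) and without replicate 2 or 3 of control, 1 or 2 of TGF-β1 or 1, 2 or 3 of dexamethasone (0.0509 to 0.154). Without all libraries numbered 1, HERPUD1 lost its call for TGF-β1 alone (0.0510). HERPUD1 was also higher with both than with dexamethasone, by 0.97 (SE 0.12, adjusted p = 3.82e-05). With the block 2 higher and 3 lower passed for TGF-β1 alone, where 50% of tested genes were called, and 2 higher and 4 lower for both against dexamethasone, where 49.9% were. Without the block those shares were 32.8% and 32.3%.

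**Figure D4:**
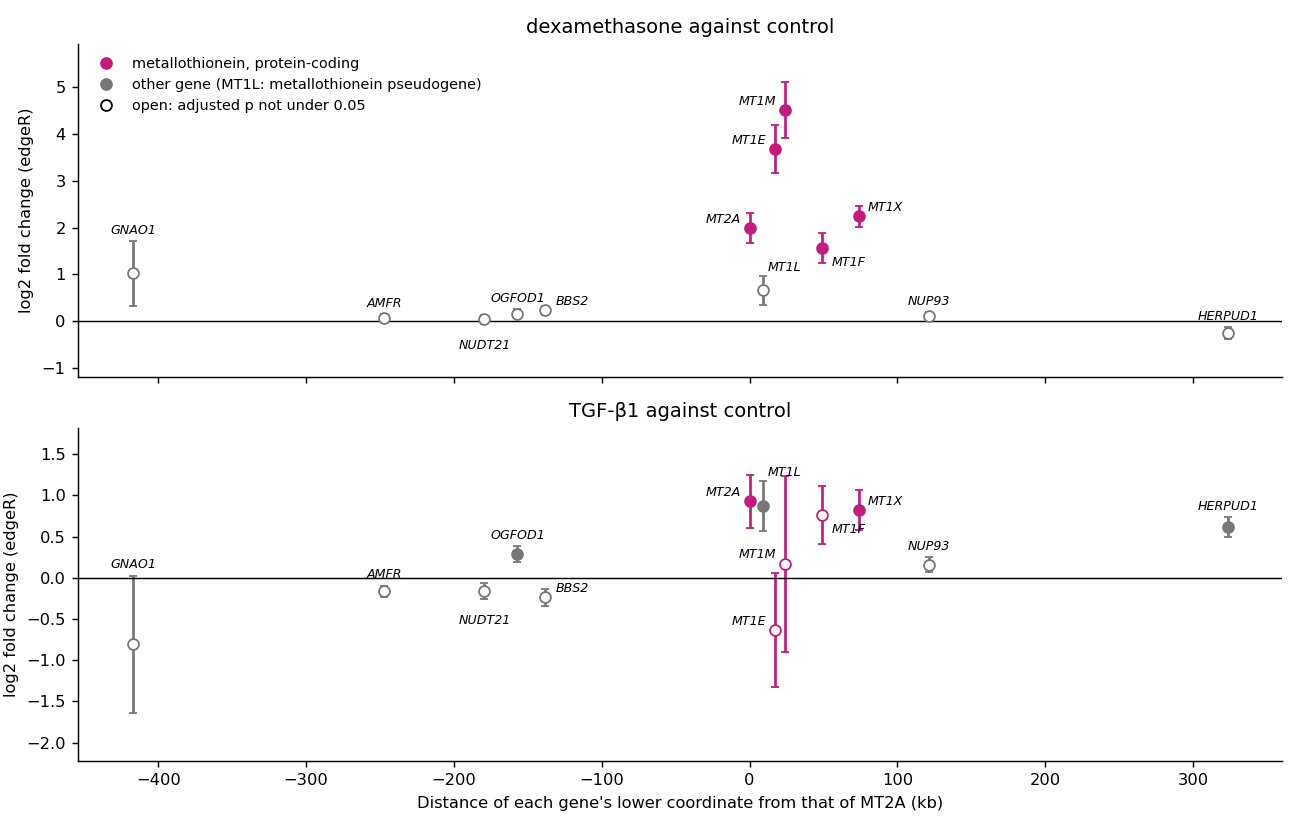
edgeR log2 fold changes (vertical axes, with the SE) of the tested metallothioneins and their tested neighbours against the distance of each gene's lower coordinate from that of MT2A in kb, for dexamethasone against control (upper panel) and TGF-β1 against control (lower panel). Filled points have an adjusted p under 0.05: with dexamethasone they are MT2A, MT1X, MT1E, MT1F and MT1M, and with TGF-β1 they are MT2A, MT1X, MT1L, OGFOD1 and HERPUD1. MT1F and MT1M passed the filter on low counts through the groups with dexamethasone, so their filled points are no support.

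Zinc transporters were read next, since zinc links metallothioneins to MTF1. SLC30A1, the exporter that MTF1 activates, ran against the metallothioneins: 8.26, 7.83 and 9.25 CPM with both, 6.51, 8.33 and 8.19 CPM with dexamethasone, 23.7, 23.7 and 26.1 CPM with TGF-β1, and 21.5, 25.9 and 23.5 CPM in control. The libraries with dexamethasone did not overlap those without it. SLC30A1 fell by 1.61 with dexamethasone alone (SE 0.13, edgeR adjusted p = 1.17e-06) and by 1.52 on top of TGF-β1 (SE 0.13, adjusted p = 2.78e-06), calls that held in all 20 alternatives tried. With TGF-β1 alone it was at 0.06 (SE 0.12, adjusted p = 0.754).

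Of 24 zinc transporters 18 were tested. With dexamethasone alone 2 were higher, SLC39A11 by 0.70 (SE 0.11) and SLC39A14, an importer of zinc and iron, by 0.55 (SE 0.14, adjusted p = 0.0175), and SLC30A1 was the 1 that was lower, 3 of 18 where 10.4% of all tested genes were called. SLC39A14 lost this call without replicate 1 or 3 of control or replicate 1 or 2 of dexamethasone (0.0515 to 0.104). On top of TGF-β1 SLC39A14 was higher by 0.66 (SE 0.14, adjusted p = 0.00647) and SLC30A1 lower, 1 in each direction where 8.11% of tested genes were called, or 2 in each with the replicate block, where 17.5% were. With TGF-β1 alone 8 were higher and 0 lower, where 32.8% of tested genes were called and 16.2% as higher, or 9 and 2 with the block, where 50% were called. They included SLC30A3, a vesicular transporter best known from neurons, by 1.46 (SE 0.36), SLC39A14 by 1.29 (SE 0.14) and SLC39A7, which releases zinc from the endoplasmic reticulum, by 0.85 (SE 0.08). With both against dexamethasone 6 were higher and 0 lower, where 32.3% of tested genes were called and 15.9% as higher, and the same 3 led them, at 1.50 (SE 0.37) for SLC30A3, 1.39 (SE 0.14) for SLC39A14 and 0.86 (SE 0.08) for SLC39A7. SLC30A3 lost that last call without replicate 3 of dexamethasone (0.0531), and both of its calls without all libraries numbered 1 or 3 (0.0757 to 0.202). The median of the 18 was -0.02 for dexamethasone alone and 0.22 for TGF-β1 alone, against 0.0035 and -0.0090 for all tested genes.

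SLC39A14 stood at 637, 751 and 529 CPM with both, 242, 268 and 221 CPM with dexamethasone, 412, 444 and 360.2 CPM with TGF-β1, and 173, 186 and 140.4 CPM in control. No 2 of its groups overlapped, and it was higher with each agent, alone and on top of the other. Without all libraries numbered 1 its dexamethasone calls were lost, at an edgeR adjusted p of 0.273 alone and 0.221 on top of TGF-β1.

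Of 13 genes of copper handling 12 were tested. ATP7B, a copper-exporting pump, was the 1 of 12 higher with dexamethasone alone, near the share of 10.4% of all tested genes, by 0.50 (SE 0.14, edgeR adjusted p = 0.033), and lost the call with DESeq2 (0.0547), with library size alone (0.0745), without the filter (0.0724) and without replicate 2 or 3 of control or replicate 1 or 3 of dexamethasone (0.0838 to 0.153). With the replicate block 2 were higher, where 22.2% of tested genes were called. On top of TGF-β1 0 passed, where 8.11% were called, or 1 in each direction with the block, where 17.5% were. With TGF-β1 alone 2 of 12 passed, where 32.8% of tested genes were called: ATP7B was higher by 0.59 (SE 0.14) and ATOX1, a copper chaperone, by 0.45 (SE 0.15, adjusted p = 0.0291), the second lost without replicate 2 or 3 of control or replicate 1 of TGF-β1 (0.105 to 0.124). With both against dexamethasone, where 32.3% of tested genes were called, ATP7B was the 1 that was higher, by 0.49 (SE 0.13), or 1 of 2 with the block, where 49.9% were. With library size alone these 3 were lost (0.0559 and 0.183 with TGF-β1 for ATP7B and ATOX1, 0.119 for both against dexamethasone).

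Genes of the metal and oxidative stress response, many of which heavy metals induce along with metallothioneins, went in both directions. Of 13 genes, all tested, dexamethasone alone raised 3 and lowered 4, where 10.4% of all tested genes were called, or 8 lower with the replicate block, where 22.2% were. GCLC, which makes the first step of glutathione synthesis, was higher by 1.89 (SE 0.10), GSR, glutathione reductase, by 1.17 (SE 0.10) and the heat shock cochaperone DNAJB1 by 0.57 (SE 0.07). SLC7A11, the cystine importer, fell by 0.94 (SE 0.19), HMOX1, haem oxygenase, by 0.76 (SE 0.12) and TXNRD1, thioredoxin reductase, by 0.71 (SE 0.10). SLC7A11 lost its call without all libraries numbered 1 (edgeR adjusted p = 0.115) or 3 (0.0723). On top of TGF-β1 the same 3 were higher, GCLC by 1.42 (SE 0.10), GSR by 1.24 (SE 0.10) and DNAJB1 by 0.36 (SE 0.07), and 2 were lower, where 8.11% of tested genes were called, or 6 with the block, where 17.5% were. Those were HMOX1, which fell by 0.50 (SE 0.11), and TXNRD1, which fell by 0.49 (SE 0.11), the second lost without replicate 3 of TGF-β1 (adjusted p = 0.0507). Without all libraries numbered 1 or all numbered 3, calls were lost for HMOX1 (0.180 and 0.167), TXNRD1 (0.186 and 0.126) and DNAJB1 (0.176 and 0.0593).

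TGF-β1 alone raised 2 of these 13 and lowered 6, where 32.8% of tested genes were called. HMOX1, the classic metal- and haem-induced gene, was higher by 1.82 (SE 0.11) and SLC7A11 by 1.19 (SE 0.17). TXNRD1 fell by 1.18 (SE 0.11), NQO1, a quinone reductase, by 1.06 (SE 0.28) and GSR by 0.80 (SE 0.10). With both against dexamethasone 2 were higher and 7 lower, where 32.3% of tested genes were called, with HMOX1 higher by 2.07 (SE 0.12) and SLC7A11 by 1.61 (SE 0.18), while TXNRD1 fell by 0.97 (SE 0.11), NQO1 by 0.90 (SE 0.28) and GCLC by 0.81 (SE 0.09). NQO1 lost its TGF-β1 call without replicate 2 of control or replicate 1 or 3 of TGF-β1 (0.0551 to 0.0627), and its call for both against dexamethasone without the filter (0.0930) and without replicate 1 of control, 1 or 2 of dexamethasone or 1 or 3 of both (0.0524 to 0.125). HMOX1 had 114, 112 and 116 CPM with both, 31.2, 21.1 and 28.6 CPM with dexamethasone, 168, 145 and 172 CPM with TGF-β1, and 46.4, 43.0 and 47.5 CPM in control, so that the libraries with dexamethasone lay below their counterparts without it.

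Other genes with like patterns were sought by the mean absolute difference of log2 CPM, centred per gene, over the 12 libraries, which share treatments and depth. For MT1E the nearest were DUSP1, a phosphatase of MAP kinases (0.33), ZBTB7C (0.46) and IP6K3 (0.49). DUSP1 averaged 347 CPM with both, 261 CPM with dexamethasone, 18.0 CPM with TGF-β1 and 26.1 CPM in control. MT1M was at 0.50 from MT1E, with 3 genes outside the set closer, whereas MT2A was at 1.01, with 104 closer, and MT1X at 0.97, with 97 closer. For MT2A the nearest were ANPEP, an aminopeptidase (0.20), PDZD2 (0.23) and TMEM164 (0.25), and MT1F was at 0.31 with 7 closer. For MT1X they were TIMP4, an inhibitor of metalloproteases (0.21), the thiamine transporter SLC19A2 (0.22) and the transcription factor CEBPB (0.24). CEBPB averaged 578 CPM with both, 486 CPM with dexamethasone, 203 CPM with TGF-β1 and 107 CPM in control. MTF1 was at 0.99 from MT1X, with 2518 genes closer, and at 0.80 from MT2A, with 1640 closer. MT1F and MT1M passed the filter on low counts through the groups with dexamethasone, so their distances are no support. The log2 CPM also carried a prior count of 2, while MT1M had at most 2 reads in any library without dexamethasone.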

How the data were processed

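RNA of 12 BEAS-2B libraries was column-purified, 500 ng with a RIN above 8 entered each, and poly(A) RNA went into a NEBNext Ultra kit, per the labels' protocols; that kit does not mark strand. The deposited values are whole read counts per gene, not normalized by the authors; featureCounts and hg38 are named per the submitters' processing notes. Not given in the sources used here are the aligner, versions, annotation release, strand setting, treatment of reads matching several genes, and the vehicle. 6 unlabelled count columns were not used. Of 28395 identifiers 27745 matched RefSeq GRCh38.p14.

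Genes passing filterByExpr (minimum count 10) were fitted over all 12 libraries in R 4.3.3 with group means, TMM and the robust quasi-likelihood test of edgeR 4.0.16, with limma 3.58.1 beneath it (adjusted p under 0.05), tested on simulated data. CPM used TMM-scaled totals. Tables and figures used Python 3.11.15, pandas 2.3.3 and matplotlib 3.10.9. Counting intervals hold counting error alone, as the reads carry no molecular identifiers and are not independent molecules. Interaction SEs combine those of both dexamethasone effects.

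The labels give no block, and the main fit had none, so its SEs and p-values make no use of the library numbers. The numbers did go with shared deviations. After removal of group means, residuals of same-numbered libraries correlated at over 0.1 in 18 of 18 pairs (0.25 to 0.541), against -0.422 to 0.042 for others. A fit with the number as a block was therefore made as an alternative. Counts of replicates differed by more than sampling allows (chi-square over its degrees of freedom 5.45 to 16.4). Alternatives were other scaling, no filter, DESeq2 1.42.0, the block and leaving out libraries. The 9 genes, the gene lists and the tests were chosen with earlier results of these data known. Besides the 9 genes, up to 3 genes per list and direction were named, by log2 fold change, for each single added agent, with FKBP5 and TGFBI as checks, the 3 genes of most like pattern for MT1E, MT1X and MT2A, and neighbours past the test. Lists covered other metallothioneins, zinc transporters, copper handling, metal and oxidative stress and cell type markers. Shared 50-base words came from GENCODE transcripts.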

Additional observations from a re-analysis of the deposited data

How the results depend on the processing

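The number of genes called, MT1F and MT1M included, for dexamethasone alone (5), for both against TGF-β1 (5) and for both against control (6) stayed within 1.5 times under other scaling, no filter, DESeq2 and the replicate block, and without single libraries or numbers ran from 3 to 5, 3 to 5 and 5 to 6. MT1F and MT1M passed the filter through the groups with dexamethasone, so their part in these counts is no support. The shares of all tested genes called were 10.4%, 8.11% and 36.6% in the same order. With the replicate block they were 22.2% for dexamethasone alone and 17.5% for both against TGF-β1. For TGF-β1 alone (3) it was 1 with library size alone, 0 without the filter on low counts and 0 to 2 when libraries were left out. For both against dexamethasone (2) it was 0 with library size alone, 0 without the filter, 1 with DESeq2, 3 with the replicate block and 0 to 2 when libraries were left out. For dexamethasone against TGF-β1 (5) it was 3 without the filter and 3 to 5 when libraries were left out, and for the interaction 0 to 0. Library size alone moved the median of all tested genes by up to -0.27 (both against control; -0.22 for TGF-β1 alone, -0.05 for dexamethasone alone), and put the summed metallothionein level at 376.9 CPM with both and 110.9 CPM with TGF-β1.

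Signs turned only for values not past the test. With library size alone MTF1 was at -0.025 for both against TGF-β1, -0.14 for both against dexamethasone and 0.12 for dexamethasone against TGF-β1, and MT1M at -0.015 for TGF-β1 alone. The MT1F interaction was 0.014 with DESeq2 size factors and 0.026 with the replicate block. When libraries were left out, MT1E ran from -0.54 to 0.36 for both against dexamethasone, MT1M from -0.90 to 0.92 for TGF-β1 alone, and MTF1 from -0.043 to 0.077 for both against TGF-β1 and from -0.089 to 0.022 for dexamethasone against TGF-β1. The interaction ran from -0.67 to 0.10 for MT2A, -0.45 to 0.0076 for MT1X, -0.066 to 1.00 for MT1E, -0.17 to 0.28 for MT1F and -0.23 to 1.61 for MT1M. The cause was not tested. With the replicate block the calls that changed among the 9 genes were MTF1 for dexamethasone alone (0.0458) and MT1M for both against dexamethasone (0.0297). Depth limits MT1A, MT1G and MT1H, with at most 20 reads in a group.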

Other observations

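The metallothionein-like gene MT1HL1, which lies outside the cluster, had 10 reads over the libraries with both, 13 with dexamethasone, 5 with TGF-β1 and 0 in control, too few to be tested. The pseudogene MT1JP had 6 reads with both, 3 with dexamethasone, 1 with TGF-β1 and 1 in control. MT3, a metallothionein best known from brain, had 0 reads with both, 1 with dexamethasone, 0 with TGF-β1 and 2 in control, and MT4, known from stratified squamous epithelium, had 0 in all 4 groups.

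MT1X was highest in replicate 3 in 4 of 4 groups, whereas MT2A and MT1E were highest in replicate 2 in 4 of 4 groups.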
